A study of Mus musculus with 8 samples.

Results

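Fgfr1, Ddr1, Tie1, Flt1, Kdr, Egfr, Met, Mst1r and Insr are 9 receptor tyrosine kinases (RTKs). They are among the 13305 genes counted in whole bone marrow (BM) of mice that share their leukemia alleles and differ in Gab2. Fgfr1, Ddr1 and Tie1 were selected with their differences between AML KO and AML WT BM already known. The other 6 are further RTKs of the count table, also chosen with earlier results of these data known. Another 22 RTKs in the table are not members. All 9 were found in the table under their Ensembl identifiers, which were matched to GENCODE M21 symbols. The filter on low counts removed 0 of the 13305 genes. In AML KO BM, Fgfr1 and Ddr1 RNA was lower than in AML WT BM and Tie1 RNA was higher. The other 6 did not pass the threshold of edgeR's quasi-likelihood test, which 2.09% of all genes passed (DESeq2 also called Flt1). AML HET BM retains 1 functional Gab2 allele. Its mean lay between those of the other genotypes in 7 of 9 members, Fgfr1 and Ddr1 among them, and in 53.3% of all genes. No member passed edgeR's threshold in AML HET against AML WT, where 0.0225% of all genes did (DESeq2 called Fgfr1). None passed in AML KO against AML HET either, where edgeR called 0.0% of all genes.

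All 8 mice were C57BL/6N animals carrying Mx1-Cre, a heterozygous Dnmt3a deletion (Dnmt3a+/-) and the Flt3 internal tandem duplication on both alleles (Flt3ITD/ITD), a combination that gives rise to AML. The 3 AML WT mice were Gab2+/+, the 2 AML HET mice Gab2+/- and the 3 AML KO mice Gab2-/-. The leukemia alleles were thus shared by every group, and the AML WT mice are not healthy controls. Disease was not equal between the genotypes, as the paper reports hardly any blood blasts in AML KO and few in AML HET mice. The labels do not give the disease state of these 8 mice. Cre was driven by the interferon-responsive Mx1 promoter, and the study describes recombination of Dnmt3a without induction. The Gab2 knockout allele is constitutive, so it was lost from every cell of the animal and not from the leukemic cells alone. The age at sampling is not in the labels.

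RTKs span the cell membrane, bind a ligand outside the cell and phosphorylate tyrosines inside it. Adaptors such as Grb2 and docking proteins such as Gab2 then assemble on or near the receptor and pass the signal to the MAP kinase, PI3 kinase and STAT pathways. In BM, some RTKs act in blood cells, as Flt3 and Kit do in progenitors, and others mark the vessels, stroma or macrophages around them. Whole BM holds all of these cells, so fewer cells of a type and less RNA per cell cannot be told apart in any value given here.

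Each library held 28009258 to 39266815 counts on genes, and a count of 0 would have allowed 3 counts, or at most 0.109 CPM (counts scaled per library with edgeR's TMM factors). The authors' counts were compared with edgeR's quasi-likelihood test over all genes with Benjamini-Hochberg adjustment, and adjusted p refers to that test below. Gab2 itself, the targeted gene, stood at 93.9, 68.5 and 61.6 CPM in the AML WT mice, 55.8 and 50.8 in the AML HET mice and 35.0, 47.2 and 40.2 in the AML KO mice. Its ranges did not overlap between any of the genotypes, but reads remained in AML KO BM, and from 1 count per gene their exons cannot be read.

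Fgfr1 (ENSMUSG00000031565, chr8:25513654-25575718 on the plus strand, GRCm38) is a receptor for fibroblast growth factors. Its RNA was at 22.7, 26.2 and 23.8 CPM in AML WT mice 1 to 3, at 13.5 and 10.0 CPM in AML HET mice 1 and 2, and at 7.59, 9.54 and 6.42 CPM in AML KO mice 1 to 3. The 3 groups formed 3 separate ranges, with every AML KO mouse below every AML HET mouse and every AML HET mouse below every AML WT mouse. Group means fell from 24.2 ± 1.82 CPM (SD, n = 3) through 11.8 ± 2.50 (SD, n = 2) to 7.85 ± 1.57 (SD, n = 3). AML KO differed from AML WT by −1.63 on the log2 scale (standard error 0.19), or 3.09-fold lower, and the adjusted p of 0.00582 is among the values that selected the gene.

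For AML HET against AML WT, the log2 fold change of Fgfr1 was −1.04 (95% interval −1.53 to −0.56), with an unadjusted p of 0.000805 and an adjusted p = 0.505 in edgeR's quasi-likelihood test. DESeq2, run as an alternative on the same counts, gave an adjusted p = 0.00327 for the same difference, so the call depended on the tool. Between AML KO and AML HET the log2 fold change was −0.59 (95% interval −1.06 to −0.11, adjusted p = 0.766 by edgeR). These comparisons share mice, and their values are not independent of each other. Of the merged exon bases of Fgfr1, 164 are also covered on the opposite strand by Gm16159, an antisense gene not listed in the table, and whether reads were assigned by strand is not given in the sources used here.

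Ddr1 (ENSMUSG00000003534, chr17:35681567-35704621 on the minus strand, GRCm38) is a receptor that binds collagen and not a soluble growth factor. The table gave 26.4, 28.3 and 32.0 CPM in AML WT mice 1 to 3, 18.7 and 13.6 CPM in the AML HET mice, and 13.6, 14.1 and 9.40 CPM in AML KO mice 1 to 3. Both other genotypes lay wholly below AML WT, while AML HET and AML KO overlapped. The group means, in the same order, were 28.9 ± 2.81 CPM (n = 3, with SD), 16.1 ± 3.57 CPM (n = 2) and 12.4 ± 2.59 CPM (n = 3). AML KO differed from AML WT by −1.22 on the log2 scale (standard error 0.20), or 2.34-fold lower, with the adjusted p of 0.0156 that selected the gene.

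Against AML WT, Ddr1 differed in AML HET BM by −0.84 on the log2 scale (95% interval −1.34 to −0.34, unadjusted p = 0.00381, adjusted p = 0.700 by edgeR). Between AML KO and AML HET the log2 fold change was −0.38 (95% interval −0.87 to 0.10, adjusted p = 0.856 by edgeR). The adjusted p of AML KO against AML WT rose to 0.0757 without AML WT replicate 2 and to 0.0526 without AML KO replicate 3, at log2 fold changes of −1.24 and −1.06. An antisense gene that the table does not list, Gm4577, covers 216 of the merged exon bases of Ddr1.

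RefSeq annotates 4 start sites of Ddr1 in the promoter table used here, and the window around the innermost of them is shown because its 4 motif matches are as many as any window of the members holds. It covers chr17:35700541-35700840 (GRCm38.p6, minus strand) from 250 bases before the start site to 50 after it, written 5′ to 3′. Capitals mark matches to the GC box (GGGCGG on either strand) and to the core site of ETS factors (CCGGAA on either strand), and no matches overlapped.
Ddr1: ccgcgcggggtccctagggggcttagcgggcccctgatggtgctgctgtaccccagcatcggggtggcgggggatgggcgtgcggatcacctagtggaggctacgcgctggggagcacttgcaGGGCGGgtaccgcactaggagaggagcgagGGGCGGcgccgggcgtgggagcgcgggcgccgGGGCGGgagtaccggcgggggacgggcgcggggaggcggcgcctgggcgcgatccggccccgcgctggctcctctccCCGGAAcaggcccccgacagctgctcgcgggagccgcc
The window holds 3 GC boxes, which 35.7% of all 32851 promoter windows contain at least once. It also holds 1 CCGGAA, which 14.9% of them contain. Its GC content was 77.7%, against a median of 52.7% over all windows. The other 3 windows of Ddr1 had a GC content of 55.7%, 57.3% and 62.0%. Counts per gene do not show which start site was used.

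Tie1 (ENSMUSG00000033191, chr4:118471191-118490061 on the minus strand, GRCm38) is an endothelial receptor without a well-established ligand of its own, which acts together with Tek, the angiopoietin receptor also called Tie2. AML WT mice 1 to 3 had 9.27, 11.8 and 13.4 CPM, the AML HET mice 14.0 and 15.9 CPM, and AML KO mice 1 to 3 had 27.8, 32.6 and 21.5 CPM. The 3 genotypes formed 3 separate ranges in the direction opposite to Fgfr1. Means rose from 11.5 ± 2.08 CPM (SD, n = 3) through 15.0 ± 1.33 (SD, n = 2) to 27.3 ± 5.57 (SD, n = 3). AML KO exceeded AML WT by 1.25 on the log2 scale (standard error 0.20), or 2.38-fold higher, with the adjusted p of 0.0152 that selected the gene.

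By the point estimates, the larger step in Tie1 was that from AML HET to AML KO. Its log2 fold change was 0.87 (95% interval 0.37 to 1.37, unadjusted p = 0.00337, adjusted p = 0.553 by edgeR). AML HET against AML WT gave 0.38 (95% interval −0.11 to 0.87, adjusted p = 0.990 by edgeR). Neither of these passed the threshold, their intervals overlapped, and no test compared the steps. Without AML WT replicate 2 the adjusted p of AML KO against AML WT was 0.0794, at a log2 fold change of 1.27.

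The promoter window of Tie1 is shown as that of the only member that was higher in AML KO BM. It covers chr4:118489800-118490099 (GRCm38.p6, minus strand), and it carries no capitals because none of the 5 motifs searched has a match in it.
Tie1: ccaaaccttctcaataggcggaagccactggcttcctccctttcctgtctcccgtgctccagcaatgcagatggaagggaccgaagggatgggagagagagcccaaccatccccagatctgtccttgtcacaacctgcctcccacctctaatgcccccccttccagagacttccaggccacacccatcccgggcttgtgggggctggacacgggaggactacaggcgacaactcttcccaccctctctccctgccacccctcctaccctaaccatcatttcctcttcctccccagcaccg
The motifs searched on both strands were TTCNNNGAA for STAT5, AGATAA for GATA factors, CCGGAA for ETS factors, the GC box and the TATA box TATAAA. Only these sequences were searched, so shorter or variant forms of a site were not counted. The sequences TTCNNNGAA and AGATAA were in 8.30% and 11.2% of all windows and in 0 of the 11 windows of the members. Of those 11 windows, which belong to 7 members, 8 held a GC box, 3 held CCGGAA (Ddr1, Kdr and Egfr) and 1 a TATA box. RefSeq windows of Fgfr1 and Insr were not used here. A match is a run of letters and not a binding site, and these windows say nothing of sequence elsewhere in the genes.

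**Figure D1:**
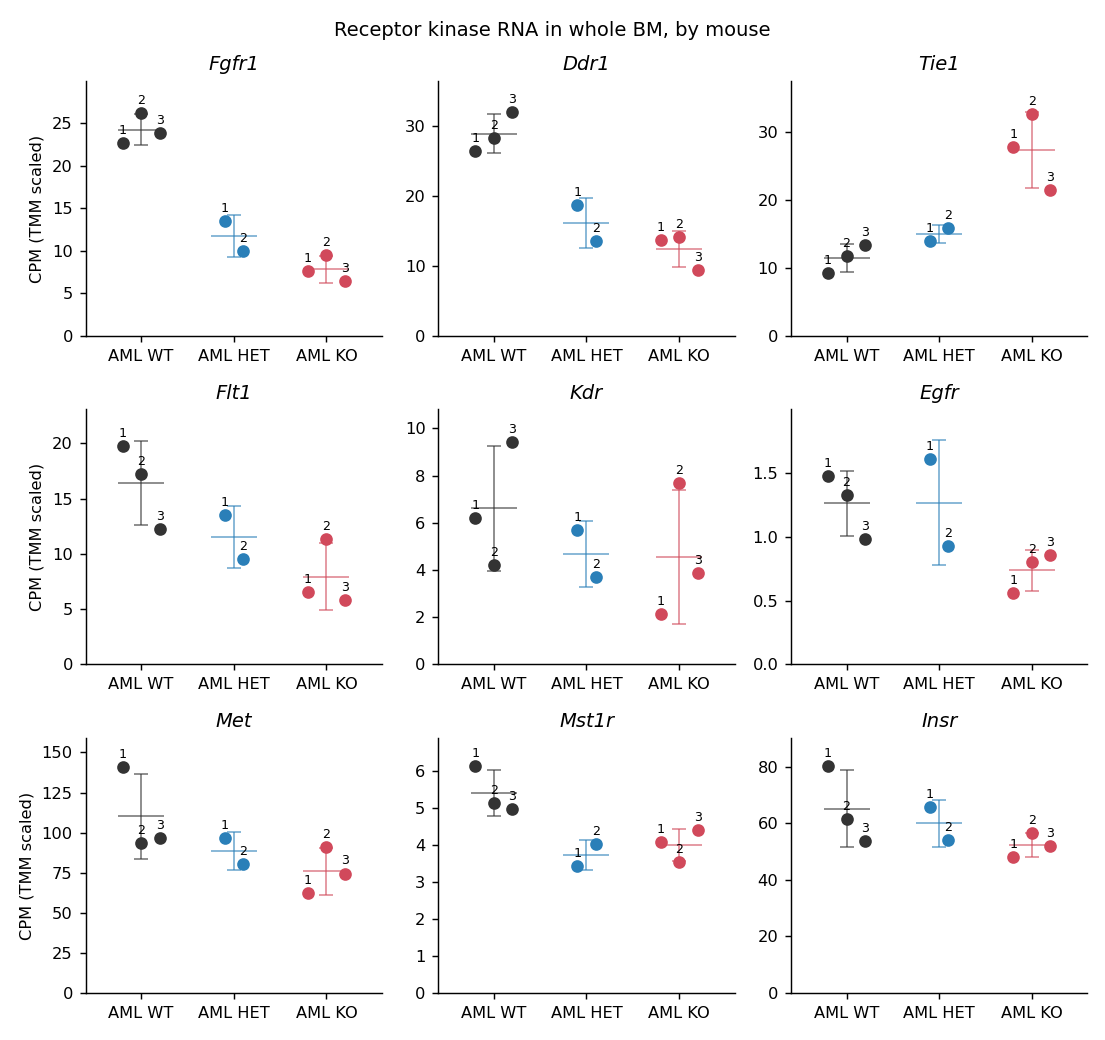
RNA of the 9 receptor kinases in whole BM, in CPM on linear axes from 0. Points are single mice with their number, and bars are the mean ± SD. Fgfr1 and Tie1 form 3 separate ranges in opposite directions, whereas AML HET and AML KO overlap in Ddr1 and all genotypes overlap in Kdr and Insr.

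Flt1 and Kdr are the receptors 1 and 2 for vascular endothelial growth factor (VEGF). Kdr transmits most VEGF signals in endothelium, and Flt1 binds VEGF tightly, is also made in a soluble form and is found on monocytes and macrophages. Flt1 (ENSMUSG00000029648, chr5:147561604-147726011 on the minus strand) was at 19.7, 17.2 and 12.3 CPM in AML WT mice, at 13.5 and 9.56 CPM in AML HET mice, and at 6.57, 11.4 and 5.86 CPM in AML KO mice. All AML KO mice lay below all AML WT mice, but AML HET overlapped with both. AML KO against AML WT gave a log2 fold change of −1.05 (95% interval −1.70 to −0.40, unadjusted p = 0.00505, adjusted p = 0.123 by edgeR). This is the nearest value outside the threshold among the members, as Ddr1 is the nearest inside it.

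The level of Flt1 in AML KO mouse 2 was close to that in AML WT mouse 3. Without AML KO replicate 2 the log2 fold change was −1.40 with an adjusted p = 0.0297 by edgeR, and DESeq2 on all mice gave an adjusted p = 0.0135. AML HET against AML WT gave −0.51 (95% interval −1.23 to 0.22), and AML KO against AML HET −0.54 (95% interval −1.26 to 0.18). Neither passed the threshold.

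The promoter window of Flt1 is shown as that of the only member with a TATA box, at 31 bases before the start site. It covers chr5:147725962-147726261 (GRCm38.p6, minus strand), and capitals mark the TATA box and 3 GC boxes.
Flt1: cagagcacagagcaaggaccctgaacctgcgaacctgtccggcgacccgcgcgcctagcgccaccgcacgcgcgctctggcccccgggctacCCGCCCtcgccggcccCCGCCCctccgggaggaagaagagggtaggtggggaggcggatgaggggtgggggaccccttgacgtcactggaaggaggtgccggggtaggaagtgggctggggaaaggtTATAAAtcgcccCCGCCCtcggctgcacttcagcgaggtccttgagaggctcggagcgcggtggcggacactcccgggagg
A TATA box was found in 13.6% of all windows.

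Kdr (ENSMUSG00000062960, chr5:75932827-75978458 on the minus strand) lies on the same chromosome as Flt1 and had the largest spread of all members within AML WT and within AML KO, though not within AML HET, where Egfr had it. It was at 6.20, 4.20 and 9.43 CPM in AML WT mice, at 5.68 and 3.70 CPM in AML HET mice, and at 2.13, 7.68 and 3.89 CPM in AML KO mice. The groups overlapped throughout, and the highest AML KO mouse had 3.61 times the level of the lowest. Between AML KO and AML WT the log2 fold change was −0.54 (95% interval −1.56 to 0.48, adjusted p = 0.521 by edgeR), an interval that leaves room for a fall as large as that of Ddr1 as well as for a rise. Without AML KO replicate 2 it was −1.13, still short of the threshold.

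Met, the receptor for hepatocyte growth factor (HGF), and Mst1r, its relative that binds macrophage-stimulating protein, are known from epithelia and from macrophages. Met (ENSMUSG00000009376, chr6:17463800-17573980 on the plus strand) was at 141, 93.2 and 96.4 CPM in AML WT mice, at 96.7 and 80.3 CPM in AML HET mice, and at 62.2, 91.3 and 74.5 CPM in AML KO mice. AML KO and AML WT were separated only by the gap between 91.3 and 93.2 CPM. The log2 fold change was −0.54 (95% interval −0.98 to −0.09, unadjusted p = 0.0226, adjusted p = 0.230 by edgeR). In AML HET BM it was −0.31 (95% interval −0.81 to 0.18). Without AML WT replicate 1, the log2 fold change of Met in AML KO against AML WT was −0.33.

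Mst1r (ENSMUSG00000032584, chr9:107906873-107920383 on the plus strand) was at 6.12, 5.12 and 4.96 CPM in AML WT mice, at 3.44 and 4.01 CPM in AML HET mice, and at 4.09, 3.53 and 4.39 CPM in AML KO mice. Both genotypes with fewer functional Gab2 alleles lay below AML WT and overlapped with each other. Its log2 fold change was −0.43 (95% interval −0.90 to 0.04, adjusted p = 0.308 by edgeR) for AML KO and −0.54 (95% interval −1.07 to −0.0035, unadjusted p = 0.0488, adjusted p = 0.990 by edgeR) for AML HET against AML WT. AML KO and AML HET differed by 0.10 (95% interval −0.43 to 0.63).

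Egfr (ENSMUSG00000020122, chr11:16752203-16918158 on the plus strand), the receptor for epidermal growth factor (EGF), was the member with the fewest counts, from 17 in AML KO mouse 1 to 60 in AML WT mouse 1. Its levels were 1.48, 1.33 and 0.98 CPM in AML WT mice, 1.61 and 0.92 CPM in AML HET mice, and 0.56, 0.80 and 0.85 CPM in AML KO mice. AML KO lay below both other groups. Its log2 fold change against AML WT was −0.77 (95% interval −1.58 to 0.03, adjusted p = 0.294 by edgeR). AML HET and AML WT means differed by 0.00 on the log2 scale (95% interval −0.88 to 0.88), which leaves room for a difference in either direction.

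Insr (ENSMUSG00000005534, chr8:3122061-3279617 on the minus strand), the insulin receptor, is expressed in most tissues. The values were 80.4, 61.4 and 53.9 CPM in AML WT mice, 65.8 and 54.1 CPM in AML HET mice, and 48.1, 56.7 and 52.0 CPM in AML KO mice. All genotypes overlapped. AML KO against AML WT gave a log2 fold change of −0.32 (95% interval −0.69 to 0.05, adjusted p = 0.330 by edgeR), the smallest among the members. Without AML WT replicate 1 it was −0.15.

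Set against all genes, 3 of 9 members (Fgfr1, Ddr1 and Tie1) passed the threshold between AML KO and AML WT BM, where 2.09% of all genes did, 1.77% as higher and 0.323% as lower. These 3 were selected on this comparison, and all 9 members were chosen with earlier results known. Nothing is therefore read from that count, nor from the other counts and the median in this paragraph. At an unadjusted p under 0.05 there were 5 members and 17.7% of all genes. Of the 9 members, 8 had a log2 fold change below 0, and their median was −0.54, beside −0.02 over all genes. In 6 members every AML KO mouse lay below every AML WT mouse, as in 9.83% of all genes, and in Tie1 every AML KO mouse lay above, as in 12.3%.

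In AML HET against AML WT BM, 0 of 9 members passed by edgeR's quasi-likelihood test (0.0225% of all genes did). By limma-voom it was also 0, by DESeq2 it was 1 (Fgfr1), and at an unadjusted p under 0.05 there were 3 (Fgfr1, Ddr1 and Mst1r), against 2.47% of all genes. Those 3 were also the members in which both AML HET mice lay below all AML WT mice, as in 8.61% of all genes, and Tie1 was the member in which they lay above, as in 9.53%. In AML KO against AML HET BM, 0 members passed by edgeR, DESeq2 or limma-voom, with edgeR calling 0.0% of all genes. At an unadjusted p under 0.05 there were 2 members (Fgfr1 and Tie1), against 5.86% of all genes. Every AML KO mouse lay below both AML HET mice in Fgfr1 and Egfr, as in 11.0% of all genes, and above them in Tie1, as in 13.2%.

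The AML HET mean lay between the AML WT and AML KO means in 7 of 9 members, and in 53.3% of all genes. Egfr and Mst1r were the exceptions. With 2 AML HET mice, these positions are descriptions of the means and were not tested. The share of all genes whose genotype ranges are all separate, as in Fgfr1 and Tie1, was not counted.

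**Figure D2:**
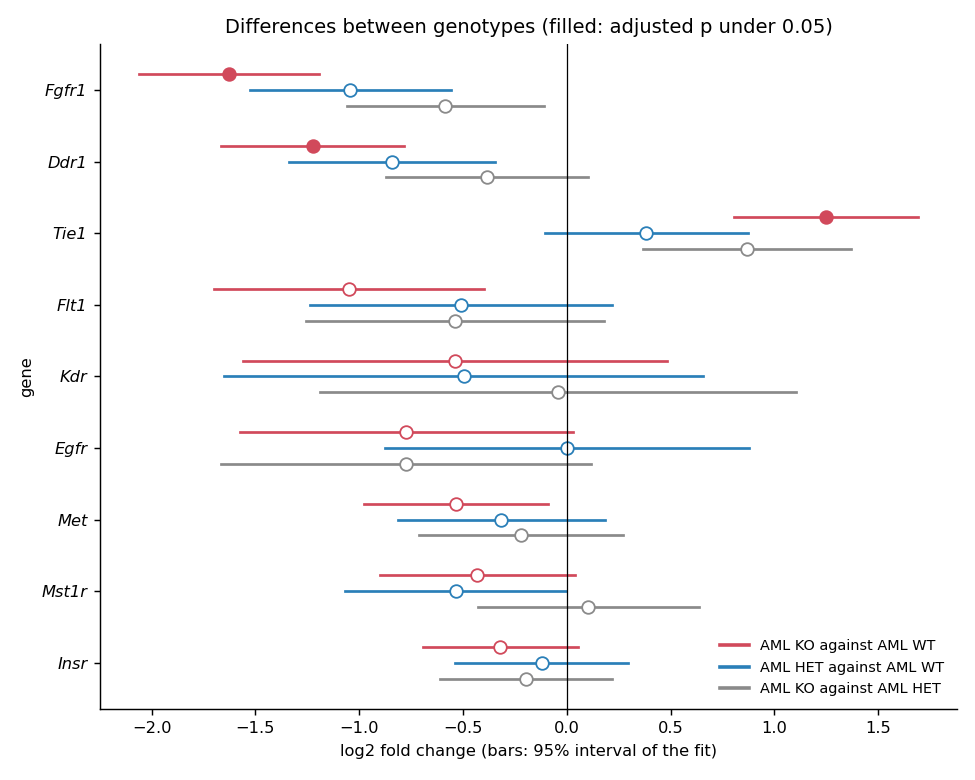
Log2 fold changes of the 9 receptor kinases in 3 comparisons of Gab2 genotypes, from edgeR's fit to all 8 mice, with 95% intervals as bars. Filled points have an adjusted p under 0.05, which only Fgfr1, Ddr1 and Tie1 reached and only in AML KO against AML WT, the comparison on which they were selected.

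Levels of different genes were compared per length, as CPM per kilobase of merged exons. In AML WT BM the order was Met (14.3 ± 3.45), Ddr1 (6.06 ± 0.589), Insr (4.75 ± 0.994), Fgfr1 (2.45 ± 0.185), Tie1 (2.34 ± 0.422), Flt1 (1.21 ± 0.282), Mst1r (1.08 ± 0.126), Kdr (0.732 ± 0.292) and Egfr (0.111 ± 0.0225; SD, n = 3 throughout). The ranges of the mice overlapped between the neighbours Ddr1 and Insr, Fgfr1 and Tie1, Flt1 and Mst1r, and Mst1r and Kdr, so those pairs have no firm order on this scale. Met stood apart at the top and Egfr at the bottom in all 3 genotypes, with either measure of length.

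In AML KO BM, Tie1 (5.55 ± 1.13 CPM per kilobase; SD, n = 3) had rank 2 behind Met (9.89 ± 1.90), ahead of Insr (3.80 ± 0.316) and Ddr1 (2.59 ± 0.542). Fgfr1 (0.795 ± 0.159) stood in a group with Mst1r and Flt1, whose ranges it overlapped. In AML HET BM, Ddr1 (3.38 ± 0.747; SD, n = 2) and Tie1 (3.04 ± 0.270) overlapped at ranks 3 and 4. The order depended in part on the length used. With the longest annotated transcript in its place, Fgfr1 came to 4.81 ± 0.362 and Tie1 to 2.71 ± 0.490 CPM per kilobase in AML WT BM (SD, n = 3), with no overlap, while Tie1 overlapped with Flt1 (2.38 ± 0.552). In AML KO BM on that scale, the mean of Tie1 (6.45 ± 1.31; SD, n = 3) again had rank 2, ahead of Insr (5.59 ± 0.464). Their ranges overlapped there, but not with merged exons.

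**Figure D3:**
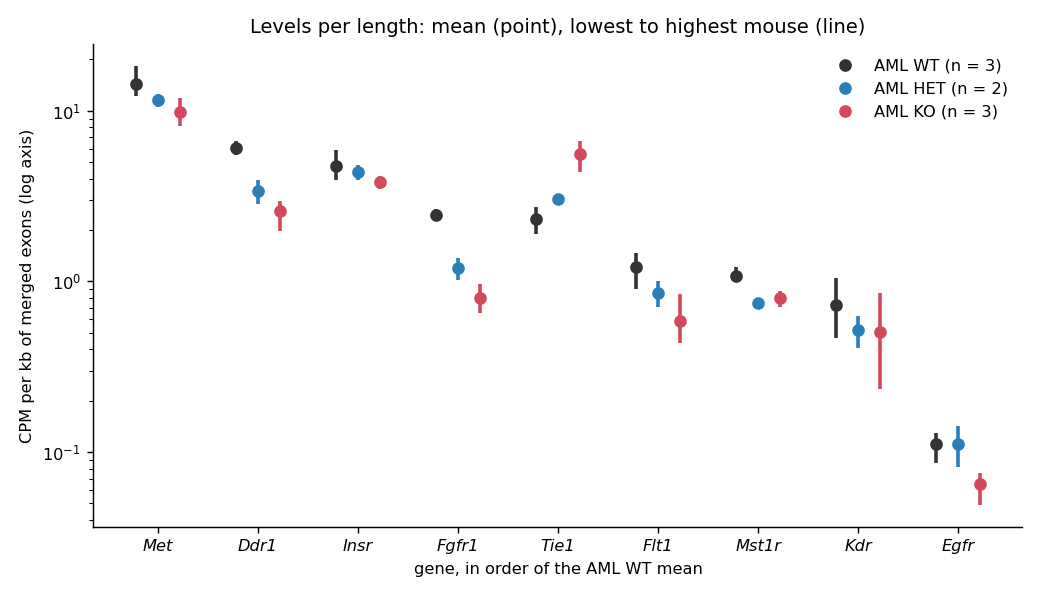
Level of each receptor kinase in CPM per kilobase of merged exons on a log axis, in order of the AML WT mean. Points are group means and lines run from the lowest to the highest mouse. On this scale Tie1 moves from rank 5 in AML WT to rank 2 in AML KO BM, while Fgfr1 and Ddr1 fall.

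Spread within groups exceeded counting error for most members. In AML WT mice the coefficient of variation was 7.53% for Fgfr1 and 9.73% for Ddr1, while counting alone would give 3.44% and 3.15%. It was 39.9% for Kdr, where counting would give 6.58%. For Egfr it was 20.2%, of which counting error, at 15.0%, was a larger part than in any other member. AML KO mouse 2 had the highest AML KO level in 7 of 9 members (37.7% of all genes were highest in that mouse), the exceptions being Egfr and Mst1r. AML HET mouse 1 had the higher AML HET level in 7 of 9 members (49.0% of all genes). AML WT mouse 1 had the highest AML WT level in 5 of 9 members (41.6% of all genes).

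The ligand list takes in the whole fibroblast growth factor family and the angiopoietins that bind Tek, so not all are ligands of the members. Of its 50 genes, 22 were in the table. Between AML KO and AML WT, 1 passed the threshold by edgeR, 1 by limma-voom and 3 by DESeq2. The 1 called by edgeR was Fgf3, a fibroblast growth factor. It rose by 1.87 on the log2 scale (standard error 0.33) with an adjusted p = 0.0210 by edgeR. Its level was low, at 0.91, 1.17 and 1.35 CPM in AML WT mice, 2.88 and 2.33 CPM in AML HET mice, and 5.66, 2.69 and 4.18 CPM in AML KO mice. All AML HET and AML KO mice were above all AML WT mice. Fgf2 stood at −0.69 (adjusted p = 0.333), and Fgf1 was not listed.

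Col1a1 (log2 fold change −0.90, adjusted p = 0.161) and Col1a2 (−0.95, adjusted p = 0.131), which encode the chains of type I collagen, a ligand of Ddr1, had the highest CPM of the listed ligands and did not pass by edgeR. Of the VEGF receptor ligands, Vegfa gave 0.38 (adjusted p = 0.249), Vegfb 0.07, Vegfc 0.11 and Pgf 0.33. The angiopoietin Angpt1 gave 0.25, Hgf −0.35, Mst1, which encodes macrophage-stimulating protein, −0.49, Egf 0.19 and Igf1 0.59 on the log2 scale, and none of these passed by edgeR. The median over the 22 genes of the ligand list was 0.04, near that of all genes.

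Of 19 co-receptors and partners, 17 were in the table and 0 passed by edgeR, DESeq2 or limma-voom, with 5 at an unadjusted p under 0.05. Tek, the partner of Tie1, had a log2 fold change of 0.20 (95% interval −0.78 to 1.18) in AML KO against AML WT. Cdh5, the endothelial cadherin that associates with Kdr, had 0.06 (95% interval −0.97 to 1.08). The VEGF co-receptors Nrp1 and Nrp2 had −0.34 and −0.41, and Fgfrl1, an FGF receptor relative without a kinase domain, had 0.80 (adjusted p = 0.199). Itgb1 and Cd44, the members of this list with the highest levels, had −0.31 and −0.13.

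Downstream of the receptors, 1 of 26 listed docking and adaptor genes passed between AML KO and AML WT by edgeR, namely Gab2 itself with −0.87 (adjusted p = 0.0420). By limma-voom 1 passed and by DESeq2 2. Plcg2 and Grb2, those with the highest levels, had log2 fold changes of −0.28 and 0.05. Among 25 negative regulators of RTKs 0 passed by edgeR or limma-voom, 1 by DESeq2 and 5 at an unadjusted p under 0.05. Their median was −0.23, and 20 of 25 were below 0. The endocytic receptor Lrp1 had −0.71 (adjusted p = 0.199) and the phosphatase gene Ptpn1 −0.07.

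Of the 22 other RTKs in the table, 12 had log2 fold changes above and 10 below 0, and the median was 0.08. Axl passed with −1.54 (adjusted p = 0.0156 by edgeR), while Csf1r and Flt3, the other RTKs with the highest levels, had −0.26 and −0.11. In AML HET against AML WT, 0 of the 22 passed by edgeR, DESeq2 or limma-voom, and 0 had an unadjusted p under 0.05.

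Markers of several cell types differed between the same mice, and their part in the results above was not tested. All 12 megakaryocyte and platelet markers were higher in AML KO than in AML WT BM and passed the threshold, with a median log2 fold change of 3.04. Their sum was 38.6 to 41.1 CPM in AML WT, 61.5 to 99.3 in AML HET and 246 to 369 in AML KO mice. This genotype order, without overlap, was also that of Tie1 and of the neutrophil marker sum given below. How common this order is among all genes was not counted, and Tie1 was selected on its difference between AML KO and AML WT. Within AML KO, the megakaryocyte, erythroid and neutrophil sums were highest in mouse 1. Tie1 was highest in mouse 2, as were the endothelial, stroma, macrophage, osteoclast and monocyte sums. Of 11 endothelial markers 0 passed by edgeR or limma-voom, 1 by DESeq2 and 5 at an unadjusted p under 0.05, with a median of 0.53. Their sum was 149 to 173 CPM in AML WT, 157 to 173 CPM in AML HET and 196 to 251 CPM in AML KO mice.

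Beside Fgfr1 and Ddr1, the osteoclast markers Ctsk and Acp5 were lower in AML KO BM, with log2 fold changes of −2.25 and −1.66 (adjusted p = 0.0131 and 0.0102 by edgeR). Ctsk, which encodes the bone-degrading protease cathepsin K, was at 72.6, 64.0 and 70.5 CPM in AML WT mice, 23.8 and 19.0 CPM in AML HET mice, and 10.4, 24.5 and 8.69 CPM in AML KO mice. As with Fgfr1 and Ddr1, both other genotypes were below AML WT, and AML KO mouse 2 was the highest of its group. Mmp9, a list member that neutrophils also make, was higher instead (1.12, adjusted p = 0.0460 by edgeR). Of the 6 osteoclast markers in the table, 5 were lower in AML KO than in AML WT BM, with a median of −1.08 over the list. In AML HET against AML WT BM all 6 were lower, with a median of −1.33 and 0 past the threshold by edgeR. The sum over the 6 markers, Mmp9 included, was 195 to 249 CPM in AML WT, 112 to 118 CPM in AML HET and 131 to 226 CPM in AML KO mice.

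The 12 stroma markers had a median of −0.45, with 0 past the threshold by edgeR or limma-voom, 2 by DESeq2 and 4 at an unadjusted p under 0.05. Of these, Col1a1, Col1a2 and Col3a1 are also ligands of Ddr1 in the list above, as Tek and Cdh5 are both partners and endothelial markers. The stroma markers summed to 815 to 1424 CPM in AML WT, 702 to 792 CPM in AML HET and 472 to 802 CPM in AML KO mice. Of 11 macrophage markers, Mrc1 was lower (−0.87, adjusted p = 0.0156) and Vcam1 and Cd5l were higher (1.02 and 2.31), with sums of 1015 to 1061 CPM in AML WT, 869 to 927 CPM in AML HET and 646 to 1049 CPM in AML KO mice. Of 10 monocyte markers 0 passed by edgeR or limma-voom, 1 by DESeq2 and 3 at an unadjusted p under 0.05, and they summed to 15680 to 17010 CPM in AML WT, 15690 to 15790 in AML HET and 11070 to 17130 in AML KO mice.

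Erythroid and neutrophil markers were higher in AML KO BM, with 9 of 11 and 6 of 11 past the threshold. Erythroid sums were 319 to 449 CPM in AML WT, 690 to 2196 CPM in AML HET and 1526 to 5387 CPM in AML KO mice. Neutrophil sums were 1310 to 4711 CPM in AML WT, 5449 to 6139 CPM in AML HET and 10530 to 17200 CPM in AML KO mice. No marker of any list was at 0 counts in any mouse.

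**Figure D4:**
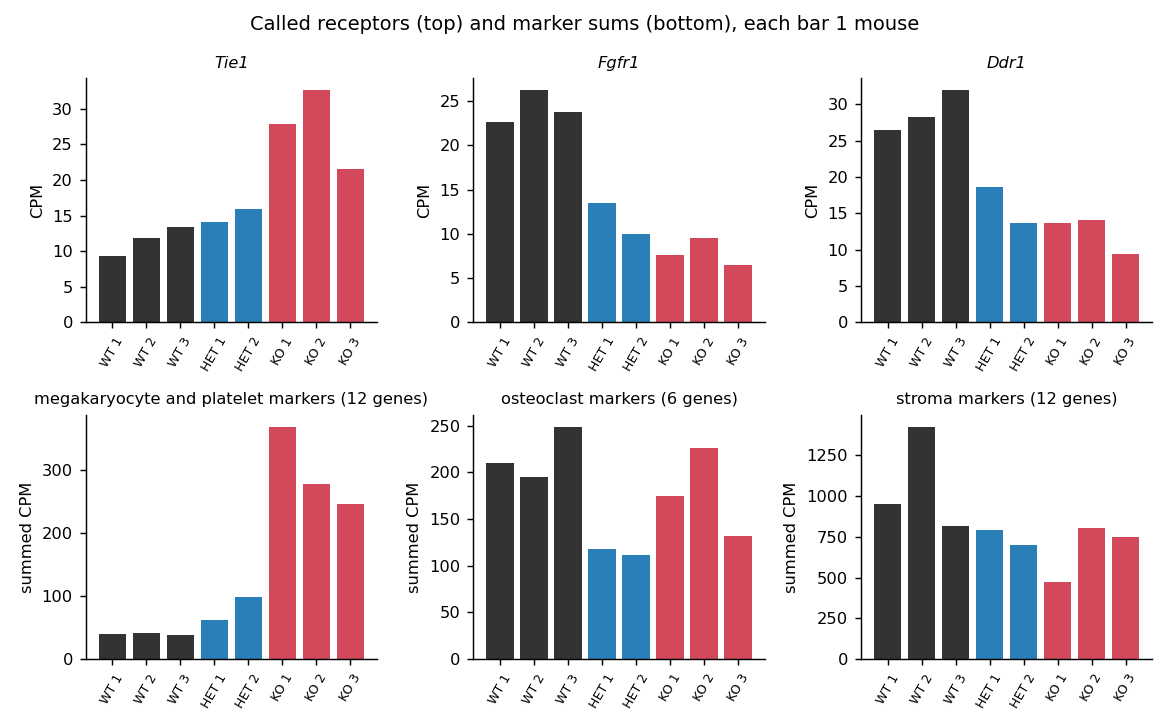
Levels of Tie1, Fgfr1 and Ddr1 in CPM (top) and summed CPM of megakaryocyte and platelet, osteoclast and stroma markers (bottom), with 1 bar per mouse on linear axes from 0. Megakaryocyte markers sum to 38.6 to 41.1 CPM in AML WT and 246 to 369 CPM in AML KO mice, while the osteoclast sum of AML KO mouse 2 reaches into the AML WT range.

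Over the 8 mice, the genes whose log2 CPM ran most closely with Fgfr1 by Pearson's r were Ddr1 (r = 0.978), Ctsk (0.973) and Spp1 (0.965), which encodes osteopontin. For Ddr1 they were Fgfr1, Plxdc2 (0.975) and Irf4 (0.974). Fgfr1 and Ddr1 were thus each other's nearest gene. For Tie1 they were Agpat2 (0.994), Anxa1 (0.990) and Hdc (0.989), which encodes the enzyme that makes histamine. Tie1 ran against Fgfr1 with r = −0.813. All of these values share the 8 libraries and the differences between the genotypes, and are descriptions without a test.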

How the data were processed

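The authors sequenced whole BM RNA on an Illumina HiSeq4000 and deposited raw counts per gene, without normalization, with 0 columns of no sample. The submitters' processing notes name Trimmomatic 0.36, STAR 2.5.2b and the build mm10, while the counting tool, its strand setting and the annotation are not given in the sources used here. No listed gene had fewer than 106 counts in total. Of the Ensembl identifiers, 13266 had a symbol in GENCODE M21 (GRCm38), the source of positions and exon lengths.

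Counts were analysed with edgeR 4.0.16 in R 4.3.3 (TMM, filterByExpr, which removed 0 genes, robust quasi-likelihood test, genotype as the only term, all 8 mice in 1 fit). Adjusted p is Benjamini-Hochberg over all genes, with a threshold of 0.05, and standard errors were derived from the F statistic. Of the 7 pairs of libraries within a genotype, none agreed within sampling noise (chi-square per gene from 27.7 to 144). The fit was tested on simulated data. Correlations used log2 CPM with a prior count of 2. Promoter windows are those of RefSeq on GRCm38.p6. Count limits cover counting error only.

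The members and all gene lists were chosen with earlier results of these data known. Named genes were the members, list genes past the threshold, up to 2 further genes per list with the highest CPM, direct ligands and partners, and the 3 genes nearest to each called member by Pearson's r. Not all ligands and partners that meet the rule are given, and Ctsk, Acp5, Mmp9, Mrc1, Vcam1 and Cd5l were named after their values were seen. Alternatives were DESeq2 1.42.0, limma-voom (limma 3.58.1), other scalings and filters, the replicate number as a block, 2 groups alone, each mouse left out, another length and a single strand for motifs. Figures were drawn with matplotlib 3.10.9.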

Additional observations from a re-analysis of the deposited data

How the results depend on the processing

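With the replicate number as a block, 0 members and 19 of all genes passed between AML KO and AML WT by edgeR. The adjusted p was then 0.0610 for Fgfr1, 0.102 for Ddr1 and 0.0919 for Tie1, at log2 fold changes of −1.64, −1.24 and 1.25. Deviations from the group means correlated at −0.509, −0.109 and −0.131 for same-numbered AML WT and AML KO mice. For differently numbered mice they correlated at −0.356 to 0.457. Deviations within a group sum to 0, so these values constrain each other and cannot decide whether the numbers pair the mice. The labels state no pairing. DESeq2 called 730 genes where edgeR called 278, and 1 member (Fgfr1) in AML HET against AML WT. Leaving out 1 mouse gave 1 to 4 called members and 40 to 370 called genes between AML KO and AML WT, both lowest without AML WT replicate 2. The count of genes was 167 when AML WT replicate 1 was left out, 137 for AML KO replicate 1 and 123 for AML KO replicate 3. The cause of these changes was not tested.

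No member changed sign between AML KO and AML WT in any alternative. In AML HET against AML WT, the Egfr value near 0 became −0.012 with total counts, −0.043 with limma-voom and −0.040 with the block. Leaving out 1 mouse, it ranged from −0.449 to 0.352 and that of Insr from −0.270 to 0.060. In AML KO against AML HET, Kdr ranged from −0.640 to 0.305 and Mst1r from −0.003 to 0.221. None of these passed the threshold in any fit. On the gene's strand alone, CCGGAA was in 1 and GC boxes in 3 of the 11 promoter windows. Egfr had the fewest counts of the members, 17 to 60 per mouse.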
